A study of Mus musculus with 28 samples.

Results

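Libraries labelled as chemically induced hepatocytes from neonatal mouse fibroblasts were compared with libraries of hepatocytes taken from adult mouse liver. The comparison used the 2 libraries labelled MNF_ciHep and the 2 libraries labelled pHep, which are 4 of the 28 libraries of the series, and was defined by these labels alone. The series measured gene expression by RNA sequencing of total RNA along a route from fibroblasts, through chemically induced endoderm progenitor cells (ciEPCs), to chemically induced hepatocytes (ciHeps). MNF_ciHep libraries came from ciEPCs of neonatal fibroblasts at passages 3 to 10 that had been taken on to the hepatocyte stage. Primary hepatocytes (pHep) were at passage 0, that is, isolated from the liver and not passaged. Both groups came from mice with an Oct4-GFP transgenic allele, a reporter of the pluripotency gene Oct4, on a cross of CBA/CaJ and C57BL/6J. The ciHeps of embryonic fibroblasts (MEF_ciHep, 3 libraries, the same allele crossed to 129Sv/Jae), the neonatal fibroblasts (MNF, 2 libraries) and their ciEPCs (MNF_ciEPC, 2 libraries, titled as neonatal although their source label reads embryonic) were used only to set levels in context. The labels do not say whether the libraries of a group came from separate cultures or animals. The p-values therefore measure only the spread between libraries within groups, which may be technical. That spread was estimated over all 9 groups of the series, not from the 4 compared libraries alone.

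Hepatocytes are the main epithelial cells of the liver and secrete most plasma proteins, among them albumin, transferrin, clotting factors and apolipoproteins. They also run the urea cycle, gluconeogenesis, bile acid synthesis and the cytochrome P450 system that oxidises drugs and steroids. These functions are switched on by a network of transcription factors that bind one another's genes, with HNF4A, the FOXA proteins, CEBPA, ONECUT factors and nuclear receptors at its centre.

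Depth was low and similar in the 2 groups. The MNF_ciHep libraries held 3102564 and 1664063 expected read counts, and the pHep libraries held 2745369 and 2010637. Counts above 0 were recorded for 18266 and 17085 genes in MNF_ciHep and for 16255 and 16383 genes in pHep. Levels are given as CPM, which scale the counts of a gene to the size of its library (here with edgeR's TMM factors), for replicate 1 and then replicate 2 of each group. The label was checked with the 10 hepatocyte markers Alb, Ttr, Apoa1, Apob, Hnf4a, Cps1, Cyp2e1, Cyp3a11, Serpina1a and Tat. Their summed level was 19.4 and 67.3 CPM in MNF_ciHep, against 29770 and 16710 CPM in pHep. In the MNF_ciHep libraries 6 and 4 of the 10 markers had no counts, against 0 of 10 in both pHep libraries. The sum was 15280, 7507 and 13750 CPM in MEF_ciHep, and 0 in both MNF libraries. The data therefore go against the hepatocyte label of the MNF_ciHep libraries, and MNF_ciHep is used below as the name of these libraries and not of a cell type. Mislabelled libraries and cells that lacked hepatocyte expression cannot be told apart in these files. In bulk RNA, fewer cells of a type and less RNA per cell cannot be told apart. Some genes of hepatocyte functions were low or absent in pHep as well, among them Cyp7a1, Cyp1a2, Cyp2e1, Nr1i3 and G6pc, as given below. The changes below are therefore relative to these 2 pHep libraries and not to adult liver in general. How far pHep departs from adult liver was not tested.

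The 7 fibroblast markers summed to 7141 and 3544 CPM in MNF_ciHep, against 14.2 and 476 CPM in pHep. The MNF libraries stood at 62460 and 68010 CPM for the same markers. The 4 stellate cell markers summed to 121.2 and 44.3 CPM in MNF_ciHep, against 7.1 and 21.9 CPM in pHep. The 8 macrophage markers summed to 2.43 and 2.88 CPM in MNF_ciHep, against 5.43 and 65.8 CPM in pHep. Adgre1, Clec4f, C1qa, C1qb and C1qc, which define liver macrophages, had no counts in either MNF_ciHep library. The 6 markers of liver endothelium summed to 78.7 and 75.4 CPM in MNF_ciHep and to 59.7 and 55.1 CPM in pHep, and the 4 bile duct markers to 352.7 and 496.5 CPM in MNF_ciHep and to 526.7 and 270.8 CPM in pHep. Replicate 2 of pHep thus had higher sums of fibroblast and macrophage markers than replicate 1, and MNF_ciHep had a higher fibroblast sum than either. Bulk RNA does not show whether separate cells of these types or the main cells of a library made this RNA. How much of any difference below comes from other cells was not tested.

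**Figure D1:**
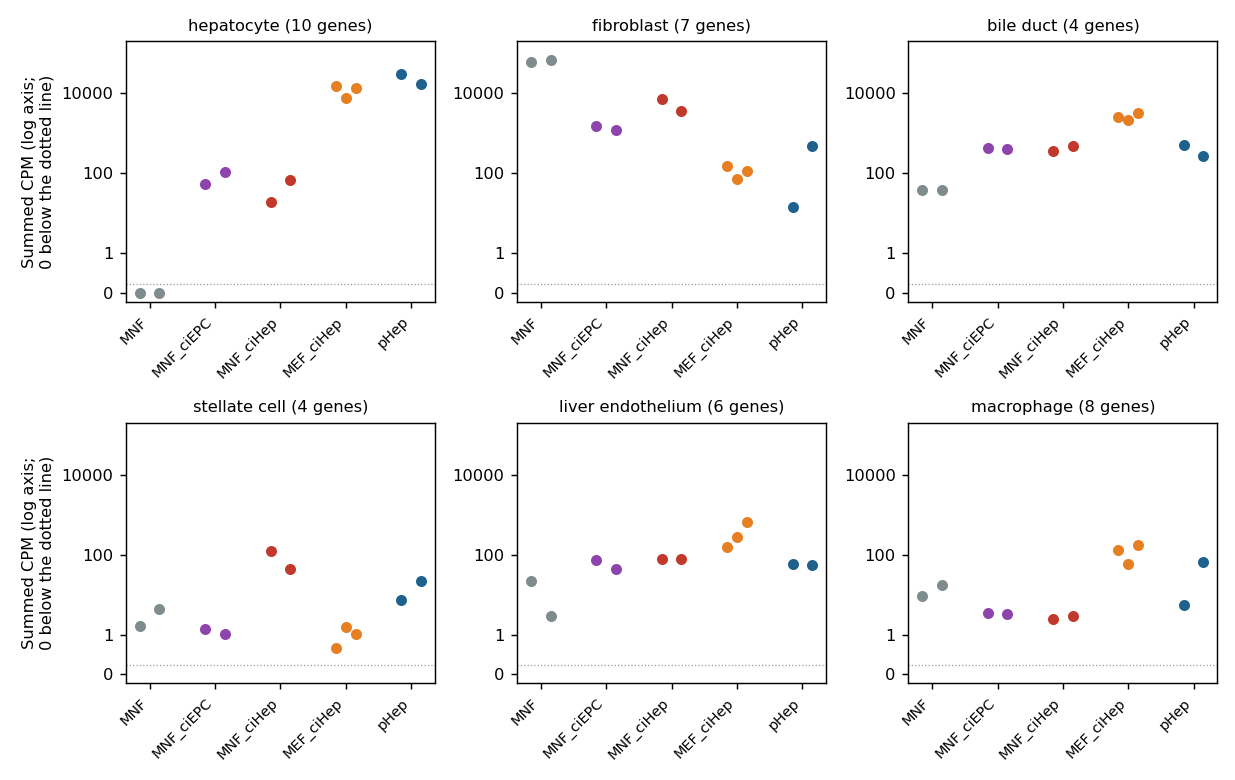
Summed CPM (log axis) of the marker genes of 6 cell types, 1 point per library, in MNF, MNF_ciEPC, MNF_ciHep, MEF_ciHep and pHep, in the order of the route with primary hepatocytes last. The hepatocyte sum is at 19.4 and 67.3 CPM in MNF_ciHep and at 29770 and 16710 CPM in pHep, while the fibroblast sum is at 7141 and 3544 CPM in MNF_ciHep and at 14.2 and 475.9 CPM in pHep.

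Of 16061 genes tested, 2950 (18.4%) were higher and 2152 (13.4%) were lower in MNF_ciHep than in pHep. A gene was called when its edgeR quasi-likelihood adjusted p was below 0.05 and its change at least 2-fold. The median log2 fold change over all tested genes was 0.11, and 57.8% of the calls were higher in MNF_ciHep. On the log2(TPM + 1) scale in limma that median was 0.25 and 65.1% of the calls were higher, a setting that changes the unit, the filter and the test together. With only the 2 compared groups in the edgeR fit, 1722 genes were higher and 1450 lower. For 65.0% of all genes tested the libraries of the 2 groups did not overlap, so a lack of overlap alone is common. Among the 15 falls that were largest by the fit, with no overlap between groups and at least 32 CPM in pHep, were Alb, Vtn (the matrix protein vitronectin), Tm4sf4 and members of the Serpina1 and Mup families. Tm4sf4, a membrane protein of liver and gut epithelium, had 0 and 0 CPM in MNF_ciHep, against 1341 and 622 CPM in pHep (at least 1706-fold lower, edgeR adjusted p = 1.66e-06). A bound such as this sets the group without counts at 3 counts over its libraries. Vtn had 0 and 0 CPM in MNF_ciHep, against 235 and 313 CPM in pHep (at least 453-fold lower, edgeR adjusted p = 1.08e-05). Among the 15 largest rises were Aqp5, a water channel of glands, Ldoc1 and Mcpt1, a mast cell protease. Aqp5 had 200.2 and 184 CPM in MNF_ciHep, against 0 and 0 CPM in pHep (at least 282-fold higher, edgeR adjusted p = 4.2e-05). Ldoc1 had 206 and 105 CPM in MNF_ciHep, against 0 and 0 CPM in pHep (at least 249-fold higher, edgeR adjusted p = 5.63e-05). Mcpt1 had 138 and 191 CPM in MNF_ciHep, against 0 and 0 CPM in pHep (at least 226-fold higher, edgeR adjusted p = 0.00359), a call that DESeq2 did not make (adjusted p = 0.18).

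The transcription factors of hepatocytes were mostly lower in MNF_ciHep, but several shared with early endoderm were not. Of the 25 factors listed, 23 were tested, 16 were lower and 5 higher, with a median log2 fold change of -3.80. Without replicate 1 of pHep 3 were higher. Hnf4a (chromosome 2, 163506808 to 163572910, GRCm38), a nuclear receptor needed for nearly all hepatocyte functions, had 3.34 and 12.7 CPM in MNF_ciHep, against 623 and 461 CPM in pHep (log2 fold change -6.25 ± 0.59 SE, edgeR adjusted p = 6.22e-06). The groups did not overlap, and MNF_ciHep stood below MNF_ciEPC, at 46.9 ± 16.7 CPM (SD, n = 2), and MEF_ciHep, at 160 ± 32.4 CPM (SD, n = 3). Onecut2, a factor of liver and bile duct development, had 4.25 and 5.18 CPM in MNF_ciHep, against 116 and 168 CPM in pHep (log2 fold change -4.93 ± 0.60 SE, edgeR adjusted p = 1.59e-05). Prox1, a homeodomain factor of hepatoblasts and hepatocytes, had 8.2 and 17.3 CPM in MNF_ciHep, against 61 and 138 CPM in pHep (log2 fold change -3.02 ± 0.64 SE, edgeR adjusted p = 0.0016). For Onecut2 and Prox1 every pHep value was above every MNF_ciHep value. Nr1h4 encodes FXR, the bile acid receptor, and had 0.911 and 0 CPM in MNF_ciHep, against 45.1 and 38.8 CPM in pHep, a pHep to MNF_ciHep ratio of 70.8 (95% counting interval 23.9 to 347, edgeR adjusted p = 0.00054). Nr1i3 encodes CAR, a receptor that induces P450 genes, and was too low to be tested, with 0 and 0 CPM in MNF_ciHep, against 0.418 and 2.04 CPM in pHep.

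Some members were chosen after their values were seen, to fill out the network. Foxa1 and Foxa3, pioneer factors that open liver enhancers, were both lower in MNF_ciHep. Foxa3 had 0.911 and 1.15 CPM in MNF_ciHep, against 37.6 and 40.8 CPM in pHep (log2 fold change -5.26 ± 0.65 SE, edgeR adjusted p = 5.42e-05). Foxa1 had 1.82 and 1.73 CPM in MNF_ciHep, against 22.6 and 28.1 CPM in pHep (log2 fold change -3.80 ± 0.49 SE, edgeR adjusted p = 3.59e-05). The groups did not overlap for either gene. Ppara, the receptor that drives fatty acid oxidation, had 0.608 and 0 CPM in MNF_ciHep, against 31.7 and 36.2 CPM in pHep, a pHep to MNF_ciHep ratio of 84.9 (95% counting interval 23.1 to 708, edgeR adjusted p = 0.000202). Nr1i2, which encodes the drug receptor PXR, had 0.304 and 0 CPM in MNF_ciHep, against 24.6 and 64.3 CPM in pHep, a pHep to MNF_ciHep ratio of 214 (95% counting interval 37.9 to 8485, edgeR adjusted p = 0.000183). Mlxipl, which encodes the glucose-responsive factor ChREBP, had 6.38 and 5.75 CPM in MNF_ciHep, against 113 and 74 CPM in pHep (log2 fold change -3.93 ± 0.53 SE, edgeR adjusted p = 5.35e-05).

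Foxa2 was not called, the call of Cebpa rested on single libraries, and Gata4, Gata6 and Tbx3 were higher. Foxa2, the pioneer factor shared by all endoderm, had 23.7 and 114 CPM in MNF_ciHep, against 56.4 and 56.1 CPM in pHep, with the pHep values between those of the MNF_ciHep libraries (log2 fold change 0.25, edgeR adjusted p = 0.728). Without replicate 1 of MNF_ciHep Foxa2 was called higher (1.01) and without replicate 2 it was called lower (-1.24). Cebpa, a factor that restrains division in mature hepatocytes, had 20.4 and 15.5 CPM in MNF_ciHep, against 23 and 93.3 CPM in pHep (log2 fold change -1.67 ± 0.56 SE, edgeR adjusted p = 0.0248), and its call was lost without either MNF_ciHep library or without replicate 2 of pHep (adjusted p = 0.07, 0.118 and 0.62). Gata4 (chromosome 14, 63198922 to 63271692, GRCm38), a factor of endoderm and heart, was higher in both MNF_ciHep libraries, with 173 and 627 CPM in MNF_ciHep, against 12.1 and 15.8 CPM in pHep (log2 fold change 4.84 ± 0.62 SE, edgeR adjusted p = 2.5e-05). Its level was 0.311 ± 0.44 CPM in MNF and 1145 ± 47.2 CPM in MNF_ciEPC (SD, n = 2 each). Tbx3, a repressor active in hepatoblasts, had 382 and 263 CPM in MNF_ciHep, against 5.85 and 3.06 CPM in pHep (log2 fold change 6.14 ± 0.54 SE, edgeR adjusted p = 1.02e-06). Gata6, the paralogue of Gata4, had 107 and 286 CPM in MNF_ciHep, against 32.2 and 35.7 CPM in pHep (log2 fold change 2.53 ± 0.46 SE, edgeR adjusted p = 0.000488); it too was chosen after its values were seen.

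**Figure D2:**
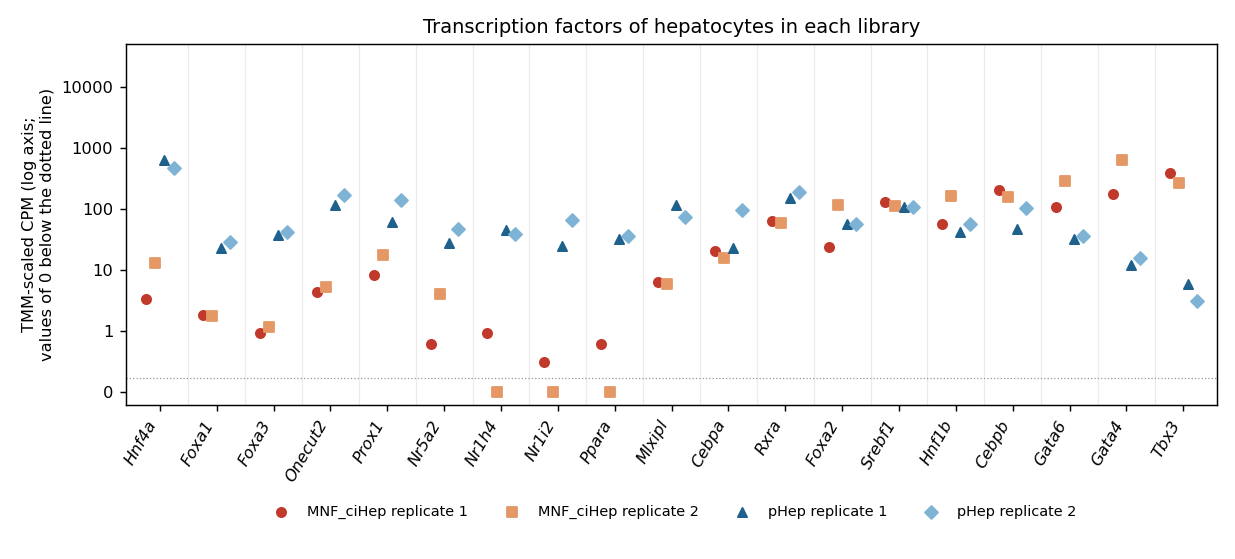
CPM of 19 transcription factor genes (log axis, values of 0 below the dotted line), 1 point per library, MNF_ciHep left of pHep for each gene; the genes were chosen after their values were seen. Hnf4a lies at 3.34 and 12.7 CPM in MNF_ciHep and at 623 and 461 CPM in pHep, and Gata4 at 173 and 627 CPM in MNF_ciHep and at 12.1 and 15.8 CPM in pHep.

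Nearly all plasma protein genes were lower in MNF_ciHep. Of 23 tested members 22 were lower in MNF_ciHep and 0 higher, with a median log2 fold change of -8.42. Albumin is the main protein of blood plasma, and Afp (the fetal form) and Gc (the vitamin D carrier) belong to the same gene family and lie near it on chromosome 5. Alb had 0 and 1 counts in MNF_ciHep, and its level was 0 and 0.575 CPM in MNF_ciHep, against 18970 and 11650 CPM in pHep, a pHep to MNF_ciHep ratio of 78840 (95% counting interval 14150 to 3114000, edgeR adjusted p = 5.56e-07). Alpha-fetoprotein had 0.911 and 6.9 CPM in MNF_ciHep, against 405 and 462 CPM in pHep (log2 fold change -7.06 ± 0.92 SE, edgeR adjusted p = 7.62e-05). In MEF_ciHep Alb was at 1905 ± 709.5 CPM and Afp at 4960 ± 2973 CPM (SD, n = 3). Both genes were therefore lower in MNF_ciHep than in MEF_ciHep and in pHep.

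Many plasma protein promoters hold short AT-rich elements, so the letters GTTAAT, read on either strand (ATTAAC on the other), were looked for in RefSeq promoter windows of 300 bases, 250 before and 50 after the start. They were found in 2332 of 32851 mouse windows (7.1%). They were in 10 of 23 windows of the plasma protein list (43.5%, 20 of 24 genes matched), 5 of 16 of the complement list (31.2%, 14 of 20 matched) and 4 of 17 of the coagulation list (23.5%, 17 of 20 matched). The share was 16.7% for the hepatocyte transcription factors (5 of 30 windows), 12.5% for the Hox cluster (3 of 24), 10.0% for the apolipoproteins (2 of 20) and 6.9% for the fibroblast list (2 of 29). A match of letters is a description and not a binding site. The bases before the start are shown for the albumin family and for Fgb, fibrinogen beta, which are among the lower members of the plasma protein and coagulation lists. Each is written 5′ to 3′ on the strand of the gene with the letters searched in capitals (RefSeq, GRCm38.p6).
Alb (chr5:90460620-90460869, plus strand, match at -32 from the start): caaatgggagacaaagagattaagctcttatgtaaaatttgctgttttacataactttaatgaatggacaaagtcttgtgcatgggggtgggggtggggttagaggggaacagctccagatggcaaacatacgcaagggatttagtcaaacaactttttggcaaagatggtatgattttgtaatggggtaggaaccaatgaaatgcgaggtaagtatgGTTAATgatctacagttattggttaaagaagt
Afp (chr5:90490464-90490713, plus strand, match at -105): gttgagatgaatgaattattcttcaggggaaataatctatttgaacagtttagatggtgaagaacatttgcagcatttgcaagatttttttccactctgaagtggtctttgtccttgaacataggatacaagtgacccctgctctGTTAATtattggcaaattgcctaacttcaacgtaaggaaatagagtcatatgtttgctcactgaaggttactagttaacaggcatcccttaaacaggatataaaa
Gc (chr5:89457899-89458148, minus strand, match at -52): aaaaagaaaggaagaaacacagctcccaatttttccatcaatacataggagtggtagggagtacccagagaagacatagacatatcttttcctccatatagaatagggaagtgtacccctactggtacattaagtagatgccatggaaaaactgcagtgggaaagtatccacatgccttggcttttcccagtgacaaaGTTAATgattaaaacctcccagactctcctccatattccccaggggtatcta
Fgb (chr3:83049864-83050113, minus strand, match at -29, on the other strand): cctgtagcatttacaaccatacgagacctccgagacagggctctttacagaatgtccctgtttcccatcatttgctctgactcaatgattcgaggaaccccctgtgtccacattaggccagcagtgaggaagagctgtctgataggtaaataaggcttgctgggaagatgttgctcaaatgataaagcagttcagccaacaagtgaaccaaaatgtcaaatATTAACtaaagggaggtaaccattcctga

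Among the other secreted carriers, Hpx, the haem scavenger haemopexin, had 1.82 and 1.15 CPM in MNF_ciHep, against 2337 and 2427 CPM in pHep (log2 fold change -10.54 ± 0.63 SE, edgeR adjusted p = 5.51e-08). Ambp, the precursor of alpha-1-microglobulin and bikunin, had 0.608 and 1.73 CPM in MNF_ciHep, against 724 and 1154 CPM in pHep (log2 fold change -9.83 ± 0.54 SE, edgeR adjusted p = 7.07e-08). Itih2, a heavy chain that pairs with bikunin in hyaluronan matrix, had 0.304 and 0 CPM in MNF_ciHep, against 607 and 1097 CPM in pHep, a pHep to MNF_ciHep ratio of 4163 (95% counting interval 747 to 164500, edgeR adjusted p = 1.71e-08). All of them were near 0 in both MNF_ciHep libraries. Trf, the iron carrier transferrin, kept a measurable level, with 49.8 and 92.1 CPM in MNF_ciHep, against 16340 and 19980 CPM in pHep (log2 fold change -8.01 ± 0.88 SE, edgeR adjusted p = 7e-06). Ttr, the thyroxine and retinol carrier, had 9.42 and 4.03 CPM in MNF_ciHep, against 1943 and 593 CPM in pHep (log2 fold change -7.45 ± 0.66 SE, edgeR adjusted p = 6.97e-06). The Serpina1 genes (alpha-1-antitrypsin) and the major urinary protein genes are near-identical copies, and the split of reads among their members is uncertain. Serpina1a had 0 and 0 CPM in MNF_ciHep, against 696 and 209.6 CPM in pHep, at least 799.7-fold lower, and Mup3 had 0 and 0 CPM in MNF_ciHep, against 1022 and 213 CPM in pHep, at least 1103-fold lower.

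Lipoprotein, clotting and complement genes followed the same direction. All 18 tested members of the apolipoprotein list were lower (median log2 fold change -5.66, or -5.23 with members at or near 0 counts set at their bound). Apob, the structural protein of liver lipoproteins, had 2.13 and 2.88 CPM in MNF_ciHep, against 2492 and 2732 CPM in pHep (log2 fold change -10.07 ± 0.87 SE, edgeR adjusted p = 1.21e-06). Apoa1, the main protein of HDL, had 4.56 and 46 CPM in MNF_ciHep, against 4791 and 729 CPM in pHep (log2 fold change -6.87 ± 1.17 SE, edgeR adjusted p = 0.000551), a wide spread in both groups. Apoe, which many cell types make, had 626 and 1274 CPM in MNF_ciHep, against 3762 and 3348 CPM in pHep (log2 fold change -1.91 ± 0.51 SE, edgeR adjusted p = 0.00751), a call lost without replicate 1 of MNF_ciHep (adjusted p = 0.0751). In the coagulation list 17 of 19 tested members were lower and 0 higher, with a median of -6.56 (-5.46 with bounds). Fgb had 24 and 59.3 CPM in MNF_ciHep, against 2990 and 3312 CPM in pHep (log2 fold change -6.28 ± 0.65 SE, edgeR adjusted p = 3.65e-05). F12, the contact factor that starts the intrinsic pathway, had 0 and 0 CPM in MNF_ciHep, against 113 and 215 CPM in pHep (at least 266-fold lower, edgeR adjusted p = 2.08e-06). Serpinf2, the plasmin inhibitor antiplasmin, had 3.34 and 8.63 CPM in MNF_ciHep, against 219 and 266 CPM in pHep (log2 fold change -5.46 ± 0.54 SE, edgeR adjusted p = 3.7e-06). The members that were not called, named after their values were seen, were F2, prothrombin, and Pros1, the cofactor protein S. F2 had 10.6 and 178 CPM in MNF_ciHep, against 349.6 and 426 CPM in pHep (edgeR adjusted p = 0.064), and Pros1 had 139 and 128 CPM in MNF_ciHep, against 131 and 80.6 CPM in pHep (edgeR adjusted p = 0.321).

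The complement list had 15 of 18 tested members lower and 0 higher. C3, the central component, had 82 and 67.9 CPM in MNF_ciHep, against 1162 and 2109 CPM in pHep (log2 fold change -4.44 ± 0.62 SE, edgeR adjusted p = 5.24e-05). C4b had 0.304 and 1.15 CPM in MNF_ciHep, against 678 and 1270 CPM in pHep, a pHep to MNF_ciHep ratio of 1584 (95% counting interval 542 to 7686, edgeR adjusted p = 9.6e-08). Of the acute phase genes, which the liver raises in inflammation, 13 of 17 were lower and 1 higher. Hp, the haemoglobin carrier haptoglobin, had 6.08 and 2.88 CPM in MNF_ciHep, against 1038 and 3986 CPM in pHep (log2 fold change -9.02 ± 0.80 SE, edgeR adjusted p = 2.54e-06). Lcn2, the iron-siderophore binder lipocalin, had 386 and 184 CPM in MNF_ciHep, against 944 and 2612 CPM in pHep (log2 fold change -2.64 ± 0.59 SE, edgeR adjusted p = 0.00414), a call DESeq2 did not make (adjusted p = 0.0747). The member that was higher was Socs3, a feedback inhibitor of cytokine signalling, with 226 and 331 CPM in MNF_ciHep, against 11.7 and 30.6 CPM in pHep (log2 fold change 3.74 ± 0.53 SE, edgeR adjusted p = 6.32e-05), named after its values were seen because it was the only one.

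**Figure D3:**
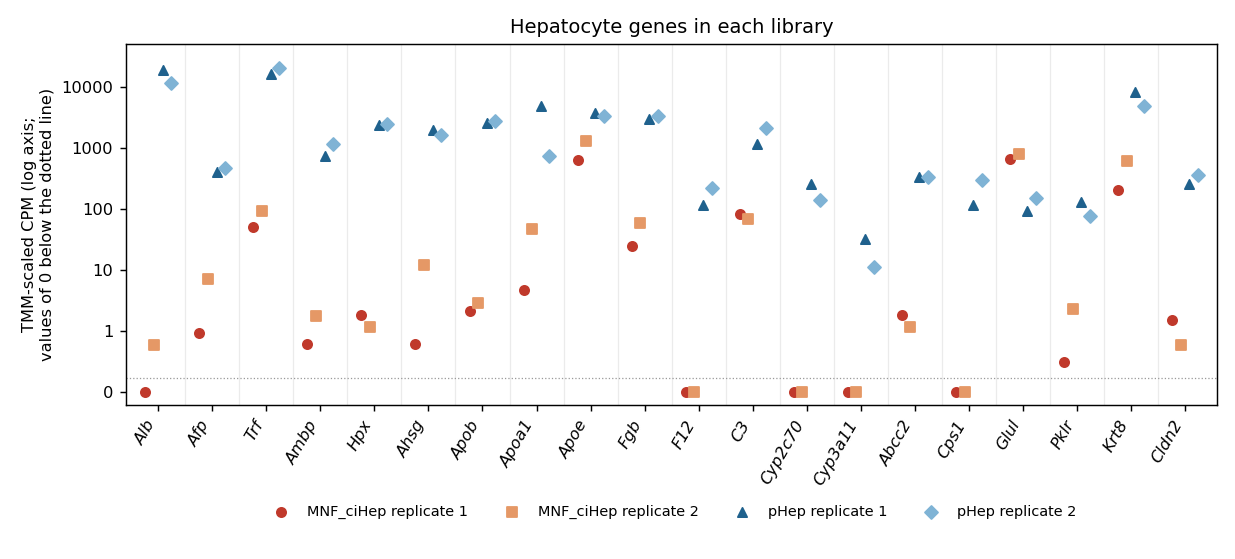
CPM of 20 genes of hepatocyte functions (log axis, values of 0 below the dotted line), 1 point per library, MNF_ciHep left of pHep for each gene; the genes were chosen after their values were seen. Apob lies at 2.13 and 2.88 CPM in MNF_ciHep and at 2492 and 2732 CPM in pHep, and Glul, at 644 and 790.5 CPM in MNF_ciHep and at 90.2 and 148 CPM in pHep, runs the other way.

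Growth hormone targets, drug metabolism and transport were lower in MNF_ciHep too. In the list of major urinary proteins and the growth hormone axis 11 of 16 tested members were lower and 1 higher. Stat5b, the factor that carries the growth hormone signal to the nucleus, had 13.1 and 12.7 CPM in MNF_ciHep, against 126 and 78 CPM in pHep (log2 fold change -2.99 ± 0.32 SE, edgeR adjusted p = 5.24e-06). Of the sex-biased liver genes 5 of 11 were lower and 2 higher; without replicate 1 of MNF_ciHep or replicate 2 of pHep 2 were lower and 0 higher. Of 22 tested P450 genes 16 were lower and 4 higher, with a median of -6.44 (-3.84 with bounds), and without replicate 1 of MNF_ciHep 9 were lower. Cyp2c70, a mouse enzyme that makes muricholic bile acids, had 0 and 0 CPM in MNF_ciHep, against 251 and 139.7 CPM in pHep (at least 336-fold lower, edgeR adjusted p = 1.24e-05). Cyp3a11, the main drug-oxidising P450 of mouse liver, had 0 and 0 CPM in MNF_ciHep, against 31.7 and 11.2 CPM in pHep (at least 37.7-fold lower, edgeR adjusted p = 0.00935), a call lost without replicate 1 of MNF_ciHep (adjusted p = 0.0593) and in DESeq2 (0.334).

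Cyp7a1, the rate-limiting enzyme of bile acid synthesis, had 0 counts in all 4 libraries. Cyp2e1, the ethanol-oxidising enzyme of pericentral hepatocytes, had 0 and 0 CPM in MNF_ciHep, against 23 and 2.04 CPM in pHep, and Cyp1a2, induced by aryl hydrocarbons, had 0 and 0 CPM in MNF_ciHep, against 7.52 and 2.04 CPM in pHep; both were too low to be tested. The 4 higher members included Cyp26b1, Cyp1b1 and the P450 reductase gene Por. Cyp26b1, which breaks down retinoic acid, had 1291 and 1075 CPM in MNF_ciHep, against 7.1 and 53.5 CPM in pHep (log2 fold change 5.32 ± 0.76 SE, edgeR adjusted p = 6.65e-05). It stood at 4.7 ± 3.34 CPM in MEF_ciHep (SD, n = 3). Cyp1b1, a P450 of mesenchymal cells, had 62 and 27 CPM in MNF_ciHep, against 0 and 1.02 CPM in pHep, an MNF_ciHep to pHep ratio of 109 (95% counting interval 29.8 to 902, edgeR adjusted p = 8.1e-06). Por, the electron donor of microsomal P450s, had 877 and 448 CPM in MNF_ciHep, against 288 and 239 CPM in pHep (log2 fold change 1.33 ± 0.27 SE, edgeR adjusted p = 0.00115), a change that fell below 2-fold without replicate 1 of MNF_ciHep (log2 0.75), and with only the compared groups in the fit the call was lost (adjusted p = 0.0727).

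Conjugating enzymes were lower in 17 of 27 tested members and higher in 0. Of the membrane transporters 16 of 22 were lower and 0 higher (median -4.78, or -4.19 with bounds). Abcc2, the pump for conjugated bilirubin at the bile canaliculus, had 1.82 and 1.15 CPM in MNF_ciHep, against 328 and 329.5 CPM in pHep (log2 fold change -7.68 ± 0.78 SE, edgeR adjusted p = 7.36e-06). Abcc3, its counterpart at the blood side, had 49.2 and 25.3 CPM in MNF_ciHep, against 471 and 511 CPM in pHep (log2 fold change -3.68 ± 0.47 SE, edgeR adjusted p = 2.39e-05). In bile acid synthesis 5 of 8 were lower, among them Acox2, a peroxisomal oxidase of the side chain, with 0.304 and 0.575 CPM in MNF_ciHep, against 74.3 and 195 CPM in pHep, a pHep to MNF_ciHep ratio of 323 (95% counting interval 89.1 to 2677, edgeR adjusted p = 9.97e-06).

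The metabolic lists did not all move in one direction. In the urea cycle list 6 of 11 were lower and 1 higher. Cps1, the first enzyme of the cycle, had 0 and 0 CPM in MNF_ciHep, against 116 and 296 CPM in pHep (at least 330.4-fold lower, edgeR adjusted p = 1.1e-05). Arg1, the last, had 2.43 and 5.75 CPM in MNF_ciHep, against 11.3 and 114 CPM in pHep (log2 fold change -4.0 ± 0.89 SE, edgeR adjusted p = 0.00227), a call lost without replicate 2 of pHep (adjusted p = 0.15). Glul, glutamine synthetase, which fixes ammonia in pericentral hepatocytes and in many other cells, was higher, with 644 and 790.5 CPM in MNF_ciHep, against 90.2 and 148 CPM in pHep (log2 fold change 2.59 ± 0.30 SE, edgeR adjusted p = 1.09e-05). Its level was 645 ± 119.8 CPM in MEF_ciHep (SD, n = 3). Amino acid catabolism had 25 of 32 lower and 0 higher (median -3.52), and Cdo1, the cysteine dioxygenase, had 17.6 and 10.9 CPM in MNF_ciHep, against 520 and 343 CPM in pHep (log2 fold change -4.87 ± 0.57 SE, edgeR adjusted p = 1.2e-05). Tat, tyrosine aminotransferase, had 0 and 1.15 CPM in MNF_ciHep, against 84 and 24.5 CPM in pHep, a pHep to MNF_ciHep ratio of 144 (95% counting interval 39.4 to 1194, edgeR adjusted p = 0.00157), which DESeq2 did not call (adjusted p = 0.231).

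Gluconeogenesis, glycogen handling and liver isozymes of glycolysis had 16 of 18 members lower and 0 higher. Tkfc, the triokinase of fructose metabolism, had 25.2 and 19.6 CPM in MNF_ciHep, against 155 and 138 CPM in pHep (log2 fold change -2.69 ± 0.25 SE, edgeR adjusted p = 1.22e-06). Pck1 and G6pc, the control points of glucose output, were lower in MNF_ciHep, in calls that rested on single libraries. G6pc had 0 and 0 CPM in MNF_ciHep, against 7.94 and 1.53 CPM in pHep (at least 8.47-fold lower, edgeR adjusted p = 0.0107), a call lost without replicate 1 of MNF_ciHep or of pHep and in DESeq2 (adjusted p = 0.0718, 0.0731 and 0.0969). Pck1 had 0.304 and 2.88 CPM in MNF_ciHep, against 7.94 and 64.3 CPM in pHep (log2 fold change -4.71 ± 1.27 SE, edgeR adjusted p = 0.0128), lost without replicate 1 of MNF_ciHep or replicate 2 of pHep (0.0955 and 0.163). Over all genes tested 18.4% were higher and 13.4% lower. The glycolytic genes of dividing cells did not move together: 4 of 18 were higher and 3 lower, with a median of 0.03. The lower count was 1 without replicate 1 of pHep and 7 without replicate 2. Slc2a3, the glucose carrier GLUT3, had 146 and 491 CPM in MNF_ciHep, against 2.51 and 1.02 CPM in pHep (log2 fold change 7.42 ± 0.76 SE, edgeR adjusted p = 3.45e-06). Pkm, a pyruvate kinase gene whose forms are not separated in these counts, had 2207 and 1547 CPM in MNF_ciHep, against 1505 and 665 CPM in pHep. It was not called (log2 fold change 0.79, edgeR adjusted p = 0.079).

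Fatty acid oxidation was lower in 15 of 25 members and higher in 0, with a smaller median (-1.13) than the secreted proteins. Acadm, the medium-chain acyl-CoA dehydrogenase, had 42.5 and 45.5 CPM in MNF_ciHep, against 147 and 169 CPM in pHep (log2 fold change -1.85 ± 0.24 SE, edgeR adjusted p = 3.21e-05). Synthesis of cholesterol and fatty acids ran the other way: 14 of 28 members were higher and 1 lower, with a median of 1.0 against 0.11 for all genes. Scd2, a stearoyl-CoA desaturase of fetal and extrahepatic tissue, had 2860 and 1609 CPM in MNF_ciHep, against 70.2 and 123 CPM in pHep (log2 fold change 4.54 ± 0.36 SE, edgeR adjusted p = 3.48e-07). Scd1, its adult liver relative, had 1258 and 968 CPM in MNF_ciHep, against 349 and 134 CPM in pHep (log2 fold change 2.20 ± 0.36 SE, edgeR adjusted p = 0.00021). Pmvk, phosphomevalonate kinase, had 93.6 and 73.1 CPM in MNF_ciHep, against 15.9 and 15.8 CPM in pHep (log2 fold change 2.40 ± 0.25 SE, edgeR adjusted p = 3.59e-06). Of the nuclear genes for oxidative phosphorylation 2 of 33 were lower and 0 higher (median -0.28); 5 were lower without replicate 1 of MNF_ciHep and 1 without replicate 1 of pHep.

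The tested genes of the 2 liver zone lists differed in their calls. Of the periportal list 15 of 20 were lower and 0 higher. Of the pericentral list only 14 of 21 members could be tested, of which 6 were higher and 2 lower. In the MNF_ciHep libraries 7 and 8 of the 21 had no counts. The pericentral list holds WNT targets that other cell types also use. Axin2, a feedback inhibitor of WNT signalling, had 96.6 and 84 CPM in MNF_ciHep, against 1.67 and 0.51 CPM in pHep (log2 fold change 6.28 ± 0.53 SE, edgeR adjusted p = 6.94e-07). In iron, copper and metal handling 10 of 16 were lower and 0 higher, and Tfr2, the hepatocyte iron sensor, had 2.43 and 2.3 CPM in MNF_ciHep, against 129 and 163 CPM in pHep (log2 fold change -5.92 ± 0.62 SE, edgeR adjusted p = 4.12e-06). Of the NRF2 list 4 of 14 were higher and 3 lower, beside 18.4% higher and 13.4% lower over all genes tested. Gclc, the rate-limiting enzyme of glutathione synthesis, had 187 and 171 CPM in MNF_ciHep, against 630.3 and 836 CPM in pHep (log2 fold change -2.03 ± 0.20 SE, edgeR adjusted p = 2.44e-06), and Nqo1, a quinone reductase, had 73.8 and 44.9 CPM in MNF_ciHep, against 8.35 and 15.8 CPM in pHep (log2 fold change 2.32 ± 0.42 SE, edgeR adjusted p = 0.000481).

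Part of the epithelial list stood above the fibroblasts but below pHep. Of the simple epithelium and junction list 18 of 28 were lower and 3 higher than in pHep. Against the MNF starting cells 19 of 28 were higher and 2 lower, in a comparison that called 16.2% of genes higher and 11.6% lower. Krt8, a keratin of simple epithelia, had 205 and 603 CPM in MNF_ciHep, against 8207 and 4797 CPM in pHep (log2 fold change -4.01 ± 0.46 SE, edgeR adjusted p = 1.04e-05), with 0.623 ± 0.292 CPM in MNF (SD, n = 2). Krt18, its partner, had 209.6 and 638 CPM in MNF_ciHep, against 5870 and 3343 CPM in pHep (log2 fold change -3.45 ± 0.55 SE, edgeR adjusted p = 0.000176). Both keratins were called lower than in pHep and higher than in MNF. Epcam, an adhesion molecule of progenitors and bile ducts that mature hepatocytes lack, was higher, with 87.8 and 227 CPM in MNF_ciHep, against 1.67 and 2.55 CPM in pHep (log2 fold change 6.21 ± 0.63 SE, edgeR adjusted p = 3.1e-06). Cdh1, E-cadherin, had 36.1 and 149.6 CPM in MNF_ciHep, against 312 and 161 CPM in pHep (log2 fold change -1.38 ± 0.52 SE, edgeR adjusted p = 0.0452), a call lost without replicate 1 of either group (adjusted p = 0.301 in each). Cdh2, N-cadherin, which hepatocytes carry beside E-cadherin, had 51.3 and 19.6 CPM in MNF_ciHep, against 182 and 181 CPM in pHep (log2 fold change -2.30 ± 0.42 SE, edgeR adjusted p = 0.000533). Replicate 2 of MNF_ciHep was above replicate 1 for Krt8, Krt18, Epcam and Cdh1.

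The hepatocyte polarity list had 10 of 14 lower and 0 higher, and Cldn2, a pore-forming claudin, had 1.52 and 0.575 CPM in MNF_ciHep, against 253 and 357 CPM in pHep (log2 fold change -7.99 ± 0.77 SE, edgeR adjusted p = 8.27e-06). The bile duct list had 8 higher and 4 lower of 21, beside 18.4% higher and 13.4% lower over all genes tested. Its higher count fell when any 1 library was left out. Krt19, a duct keratin, had 175 and 144 CPM in MNF_ciHep, against 366 and 135 CPM in pHep (log2 fold change -0.65, edgeR adjusted p = 0.229). Spp1, osteopontin, had 1162 and 1554 CPM in MNF_ciHep, against 1510 and 597 CPM in pHep (log2 fold change 0.37, edgeR adjusted p = 0.698). Of the squamous epidermis list 16 of 25 were higher and 4 lower. Krt13, a keratin of internal stratified epithelia chosen after its values were seen, had 37.4 and 43.1 CPM in MNF_ciHep, against 0 and 0 CPM in pHep (at least 57.1-fold higher, edgeR adjusted p = 0.000337). Sprr1a, a cornified envelope precursor that injured cells also raise, was higher in pHep, with 56.5 and 80.5 CPM in MNF_ciHep, against 6408 and 3085 CPM in pHep (log2 fold change -6.12 ± 0.73 SE, edgeR adjusted p = 2.62e-05).

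Fibroblast and matrix genes were higher in MNF_ciHep as a list. Of 40 tested members 32 were higher and 1 lower, with a median log2 fold change of 4.17. Of these, 17 were at the same time lower than in MNF. Col1a1, the main chain of type I collagen, had 1252 and 617 CPM in MNF_ciHep, against 7.1 and 143 CPM in pHep (log2 fold change 3.65 ± 0.98 SE, edgeR adjusted p = 0.00782), with 27590 ± 1505 CPM in MNF (SD, n = 2). Col6a1, a microfibrillar collagen chain, had 1166 and 469 CPM in MNF_ciHep, against 2.51 and 3.57 CPM in pHep (log2 fold change 8.08 ± 0.68 SE, edgeR adjusted p = 6.51e-07). Mmp2, a gelatinase of stromal cells, had 927 and 955 CPM in MNF_ciHep, against 0 and 0.51 CPM in pHep, an MNF_ciHep to pHep ratio of 4078 (95% counting interval 732 to 161100, edgeR adjusted p = 2.68e-05). In these genes both MNF_ciHep values exceeded both pHep values. Pdgfra, the PDGF receptor that marks fibroblasts, had 795 and 951 CPM in MNF_ciHep, against 2.92 and 15.8 CPM in pHep (log2 fold change 6.59 ± 0.62 SE, edgeR adjusted p = 1.7e-06). Twist1, a mesenchymal transcription factor, had 234 and 156 CPM in MNF_ciHep, against 0.835 and 1.53 CPM in pHep (log2 fold change 7.38 ± 0.45 SE, edgeR adjusted p = 5.51e-08). Thy1, a fibroblast surface protein, had 376 and 97.8 CPM in MNF_ciHep, against 0.418 and 1.02 CPM in pHep, an MNF_ciHep to pHep ratio of 406 (95% counting interval 139 to 1973, edgeR adjusted p = 9.33e-06). The groups did not overlap for Pdgfra, Twist1 and Thy1 either, although replicate 2 of pHep also held Col1a1. Fn1, fibronectin, which hepatocytes secrete into plasma, was the lower member, with 4140 and 6947 CPM in MNF_ciHep, against 12620 and 20530 CPM in pHep (log2 fold change -1.58 ± 0.33 SE, edgeR adjusted p = 0.00139). With only the compared groups in the fit, the calls of Col1a1 and Fn1 were lost (adjusted p = 0.0917 and 0.155). Vim, vimentin, had 1085 and 597 CPM in MNF_ciHep, against 698 and 1249 CPM in pHep and was not called (edgeR adjusted p = 0.742).

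Of the smooth muscle genes 4 of 18 were higher and 4 lower, beside 18.4% higher and 13.4% lower over all genes tested. Both smooth muscle counts changed when 1 library was left out. Acta2, smooth muscle actin, had 24 and 6.33 CPM in MNF_ciHep, against 1.25 and 69.9 CPM in pHep, and its log2 fold change was -1.11 (edgeR adjusted p = 0.324), but 3.64 without replicate 2 of pHep (0.00822) and -2.07 without replicate 1 (0.00673). The stellate cell list had 8 of 12 higher and 0 lower, and 5 higher without either MNF_ciHep library or without replicate 1 of pHep. Of the mesothelium list 1 of 8 were higher and 1 lower, near the shares over all genes tested. Of the YAP and TGF-beta list 5 of 16 were higher and 3 lower, and Ctgf, a matricellular target of YAP, was higher in pHep, with 46.8 and 145 CPM in MNF_ciHep, against 1749 and 2814 CPM in pHep (log2 fold change -4.59 ± 0.85 SE, edgeR adjusted p = 0.00058).

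Positional and imprinted genes were among the lists with the highest share of higher calls. Of 36 tested Hox genes, which record position along the body axis, 30 were higher and 0 lower (median 6.17, or 3.92 with bounds). In the pHep libraries 34 and 29 of the 39 Hox genes listed had no counts, so hardly any could have been called lower. Hoxb9 had 89 and 34 CPM in MNF_ciHep, against 0 and 0 CPM in pHep (at least 102-fold higher, edgeR adjusted p = 1.51e-06). Hoxc6 had 41 and 19 CPM in MNF_ciHep, against 0 and 0 CPM in pHep (at least 48.5-fold higher, edgeR adjusted p = 5.21e-06). Of the skin and limb positional factors 12 of 16 were higher and 0 lower, with the same limit: 13 and 11 of the 17 listed had no counts in pHep. Prrx1, a limb mesenchyme factor, had 252 and 119 CPM in MNF_ciHep, against 0.835 and 2.04 CPM in pHep (log2 fold change 7.05 ± 1.04 SE, edgeR adjusted p = 0.000117). Pitx1, a hindlimb factor, had 101 and 258 CPM in MNF_ciHep, against 0.418 and 0.51 CPM in pHep, an MNF_ciHep to pHep ratio of 338 (95% counting interval 93.3 to 2796, edgeR adjusted p = 3.93e-06). It averaged 0.623 ± 0.292 CPM in MNF and 1284 ± 153 CPM in MNF_ciEPC (SD, n = 2 each).

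Of the imprinted genes 17 of 22 were higher and 0 lower, with a median of 4.64. H19, a noncoding RNA that is abundant in fetal liver and silenced after birth, had 7103 and 7544 CPM in MNF_ciHep, against 23.4 and 21.4 CPM in pHep (log2 fold change 8.35 ± 1.13 SE, edgeR adjusted p = 4.24e-05). Igf2, the neighbouring fetal growth factor, had 3072 and 2042 CPM in MNF_ciHep, against 8.77 and 42.3 CPM in pHep (log2 fold change 6.67 ± 0.75 SE, edgeR adjusted p = 8.06e-06). Peg10, a retrotransposon-derived gene of placenta, had 817 and 1919 CPM in MNF_ciHep, against 6.26 and 8.67 CPM in pHep (log2 fold change 7.52 ± 0.70 SE, edgeR adjusted p = 1.52e-06). Genes of hepatoblasts and fetal liver were mixed, with 10 higher and 3 lower among 19 tested, and Afp and Ahsg were among the lower ones. Ahsg, the fetal glycoprotein fetuin-A, had 0.608 and 12.1 CPM in MNF_ciHep, against 1940 and 1598 CPM in pHep (log2 fold change -8.42 ± 0.69 SE, edgeR adjusted p = 4.08e-06). H19 stood at 4377 ± 881 CPM in MNF (SD, n = 2). In MEF_ciHep H19 was at 10590 ± 5271 CPM and Igf2 at 1854 ± 765 CPM (SD, n = 3). Neither was called between MNF_ciHep and MEF_ciHep (edgeR adjusted p = 0.588 and 0.486). Of the 22 imprinted genes 8 were higher and 1 lower than in MEF_ciHep, beside 17.8% and 16.1% over all genes tested.

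Genes of early endoderm lineages were higher in both MNF_ciHep libraries and, for the genes named here, more so in replicate 2. In the extraembryonic endoderm list 19 of 23 were higher and 2 lower, with a median of 4.06. The list summed to 7614 and 27950 CPM in MNF_ciHep and to 3956 and 4409 CPM in pHep. In MEF_ciHep it summed to 25810, 14780 and 15130 CPM, so a high level was not particular to MNF_ciHep. Lama1, a laminin chain of early basement membrane, had 845 and 4187 CPM in MNF_ciHep, against 2.51 and 2.55 CPM in pHep (log2 fold change 9.94 ± 0.79 SE, edgeR adjusted p = 3.87e-07), with 20.5 ± 1.68 CPM in MNF and 4805 ± 1415 CPM in MNF_ciEPC (SD, n = 2 each). Sox17, an endoderm transcription factor, had 59.8 and 209 CPM in MNF_ciHep, against 1.67 and 1.02 CPM in pHep (log2 fold change 6.56 ± 0.86 SE, edgeR adjusted p = 5.92e-05). Pth1r, a receptor of parietal endoderm, had 147 and 403 CPM in MNF_ciHep, against 0 and 1.02 CPM in pHep, an MNF_ciHep to pHep ratio of 512 (95% counting interval 142 to 4237, edgeR adjusted p = 1.16e-06). Of the basement membrane list 10 of 20 were higher and 3 lower, and Col4a1, a type IV collagen chain, had 1696 and 6623 CPM in MNF_ciHep, against 473 and 339 CPM in pHep (log2 fold change 3.36 ± 0.49 SE, edgeR adjusted p = 8.26e-05). The placental list had 5 higher and 1 lower members of 20, beside 18.4% higher and 13.4% lower over all genes tested. Its higher count fell without either pHep library.

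Of the pluripotency list 7 of 20 were higher and 0 lower, but 11 and 14 of the 20 had no counts in pHep and could hardly be called lower. Lin28a, an RNA-binding protein of early embryonic cells, had 33.7 and 86.9 CPM in MNF_ciHep, against 0 and 0 CPM in pHep (at least 75.6-fold higher, edgeR adjusted p = 7.24e-06). Sall4, a zinc finger factor of stem cells and fetal liver, had 32.5 and 123 CPM in MNF_ciHep, against 0.418 and 0 CPM in pHep, an MNF_ciHep to pHep ratio of 278 (95% counting interval 49.5 to 11010, edgeR adjusted p = 1.42e-05). Pou5f1, which encodes Oct4 and was looked up because of the reporter allele, had 2.73 and 27.6 CPM in MNF_ciHep, against 0.418 and 0 CPM in pHep and was not called (edgeR adjusted p = 0.21). Tdgf1, a co-receptor of NODAL, had 43.4 and 148 CPM in MNF_ciHep, against 0 and 0 CPM in pHep (at least 115-fold higher, edgeR adjusted p = 0.0112), a call lost without replicate 1 or without replicate 2 of pHep (0.06 and 0.0521). The lists of other organs had calls in both directions, beside 18.4% higher and 13.4% lower over all genes: gastric mucosa 2 higher and 2 lower of 14, intestine 3 and 4 of 16 (2 lower without either MNF_ciHep library), pancreas 1 and 1 of 5, and lung 1 and 0 of 4. Skeletal muscle had 3 higher and 0 lower of 11, neural genes 6 and 2 of 13, and adipocyte genes 0 and 4 of 7 (2 lower without either MNF_ciHep library, 1 without replicate 1 of pHep). The 3 muscle calls were down to 1 without replicate 1 of MNF_ciHep and 0 without replicate 1 of pHep, and most list counts of 2 or fewer also changed when 1 library was left out.

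**Figure D4:**
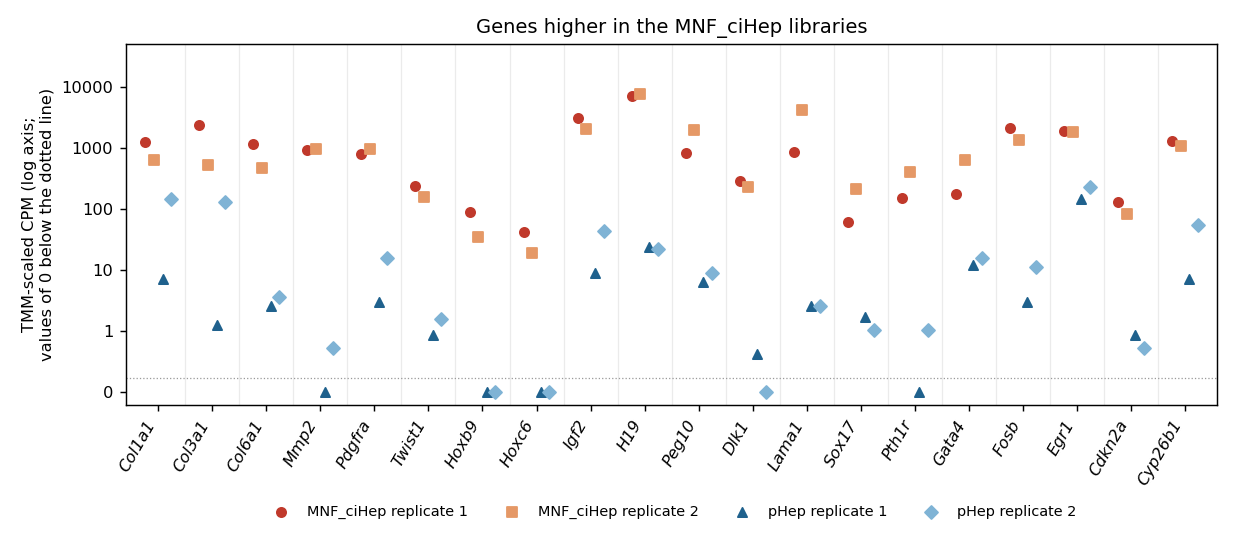
CPM of 20 genes of mesenchyme, position, imprinting, early endoderm and stress (log axis, values of 0 below the dotted line), 1 point per library, MNF_ciHep left of pHep for each gene; the genes were chosen after their values were seen. Col6a1 lies at 1166 and 469 CPM in MNF_ciHep and at 2.51 and 3.57 CPM in pHep, and Lama1 at 845 and 4187 CPM in MNF_ciHep and at 2.51 and 2.55 CPM in pHep.

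Proliferation separated the pHep libraries from each other. Of 31 cell cycle genes 9 were higher in MNF_ciHep and 0 lower. The higher count was 29 without replicate 1 of pHep and 0 without replicate 2, and 3 without replicate 2 of MNF_ciHep. Mki67, a marker of dividing cells, had 178 and 244 CPM in MNF_ciHep, against 153 and 31.1 CPM in pHep (log2 fold change 1.18 ± 0.45 SE, edgeR adjusted p = 0.0472), a call lost without either MNF_ciHep library or without replicate 2 of pHep (adjusted p = 0.0723, 0.211 and 0.303). Top2a, the topoisomerase of dividing cells, had 221 and 238 CPM in MNF_ciHep, against 139.5 and 45.4 CPM in pHep (log2 fold change 1.30 ± 0.37 SE, edgeR adjusted p = 0.0106), lost without replicate 2 of pHep (0.11). Replicate 1 of pHep was thus close to MNF_ciHep and replicate 2 was lower. With only the compared groups in the fit, the calls of Mki67 and Top2a were lost (edgeR adjusted p = 0.264 and 0.127), as were those of Cebpa, Arg1, Pck1 and Cdh1 (0.123, 0.0583, 0.0538 and 0.196).

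Genes of cell cycle arrest were also split. Of the p53 and Ink4 list 6 of 19 were higher and 2 lower, beside 18.4% higher and 13.4% lower over all genes tested. The higher count fell without replicate 1 of pHep. Cdkn2a, the locus of p16 and p19ARF, which cultured fibroblasts express, had 129 and 80.5 CPM in MNF_ciHep, against 0.835 and 0.51 CPM in pHep, an MNF_ciHep to pHep ratio of 163 (95% counting interval 55.6 to 794, edgeR adjusted p = 8.31e-07). Igfbp5, an IGF-binding protein of mesenchyme, had 6598 and 4618 CPM in MNF_ciHep, against 1.25 and 2.55 CPM in pHep (log2 fold change 11.55 ± 0.91 SE, edgeR adjusted p = 3.48e-07). Cdkn1a, which encodes p21, had 500 and 348 CPM in MNF_ciHep, against 221 and 305 CPM in pHep and changed by less than 2-fold (log2 fold change 0.69, edgeR adjusted p = 0.045).

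Immediate early genes, which respond within minutes to serum or handling, were higher in 12 of 21 and lower in 2. Fosb had 2095 and 1338 CPM in MNF_ciHep, against 2.92 and 11.2 CPM in pHep (log2 fold change 7.97 ± 1.82 SE, edgeR adjusted p = 0.00265), and DESeq2 gave it no adjusted p. Egr1 had 1881 and 1797 CPM in MNF_ciHep, against 147 and 230 CPM in pHep (log2 fold change 3.29 ± 0.80 SE, edgeR adjusted p = 0.00391). Both pHep libraries were below both MNF_ciHep libraries for Fosb and Egr1. Of the unfolded protein response 2 of 19 were higher and 3 lower, and of the circadian genes 4 of 18 were higher and 1 lower. These counts stand beside 18.4% higher and 13.4% lower over all genes tested. The counts of both lists changed when 1 library was left out.

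Lists of immunity and blood are small, and their counts stand beside 18.4% higher and 13.4% lower over all genes tested. Class I antigen presentation had 4 of 11 lower and 0 higher, and H2-D1, a class I heavy chain, had 163 and 225 CPM in MNF_ciHep, against 1173 and 1229 CPM in pHep (log2 fold change -2.63 ± 0.20 SE, edgeR adjusted p = 2.47e-07). Interferon genes were lower in 6 of 20 and higher in 1. Of the Kupffer cell list 6 of 14 were lower and 0 higher, but 1 was lower without replicate 1 of MNF_ciHep or replicate 2 of pHep and 2 without replicate 2 of MNF_ciHep. Liver endothelium had 5 higher (3 without replicate 2 of either group) and 1 lower of 18, lymphocytes 0 and 0 of 3, and erythroid genes 1 and 0 of 3.

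**Figure D5:**
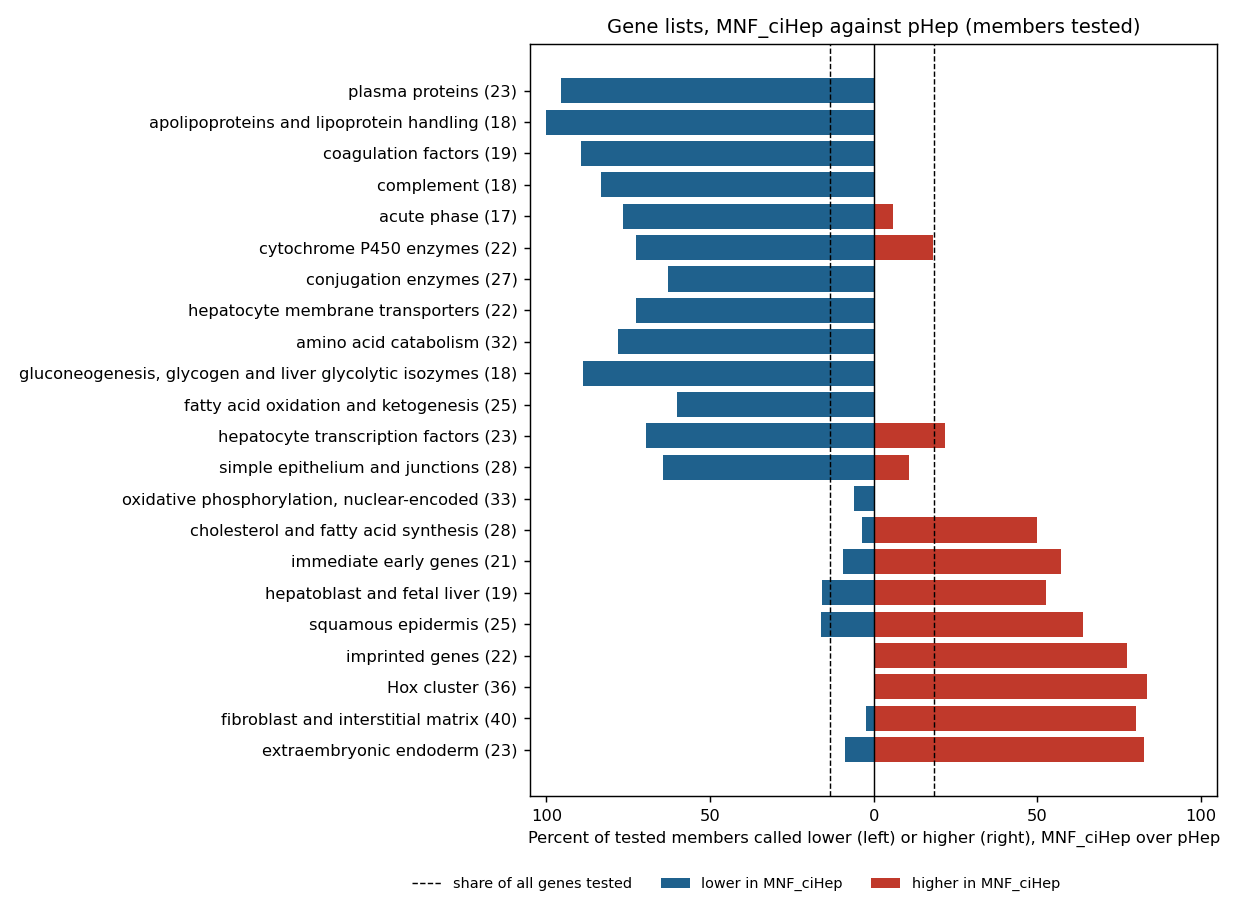
Share of the tested members of each gene list (percent, number tested in brackets) that were called higher or lower in MNF_ciHep than in pHep, with lines at the shares of all 16061 genes tested, 18.4% higher and 13.4% lower. Apolipoproteins and plasma proteins lie at the lower end and Hox, fibroblast and extraembryonic endoderm genes at the higher end.

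The MNF_ciHep libraries were last set against the starting fibroblasts and the ciHeps of embryonic fibroblasts. Of the 16061 genes 295 (1.84%) were lower than pHep and higher than MNF, and 343 (2.14%) were higher than pHep and lower than MNF. Both counts share the MNF_ciHep libraries, and the MNF libraries had a longer implied read length, 74.5 bases against 50.5 in MNF_ciHep, which cannot be told apart from the group. Of the fibroblast list 17 of 40 members were in the second class, and of the simple epithelium list 11 of 28 were in the first. Against MEF_ciHep, 2866 genes (17.8%) were higher and 2583 (16.1%) lower in MNF_ciHep. Of the fibroblast list 38 of 40 were higher, and of the plasma protein list 17 of 23 were lower. As a description over log2 CPM of all tested genes, the correlation of MNF_ciHep with each other group was taken as the mean of 4 or 6 sample pairs. It was 0.725 for pHep, 0.735 for MEF_ciHep, 0.797 for MNF_ciEPC and 0.81 for MNF. It was 0.83 for embryonic fibroblasts (MEF) and 0.822 for their ciEPCs (MEF_ciEPC), whose libraries were summed per culture series, unlike the single libraries of the other groups. Embryonic stem cells (ESC) stood at 0.692 and the endoderm progenitors made from them (ESC_EPC) at 0.747. The ranges over sample pairs overlapped for MEF (0.806 to 0.857), MEF_ciEPC (0.771 to 0.869), MNF (0.784 to 0.837) and MNF_ciEPC (0.77 to 0.824). The libraries within a group correlated at 0.94 in MNF_ciHep and 0.933 in pHep.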

How the data were processed

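RSEM expected counts and TPM per gene were deposited by the authors; the submitters' processing notes name RSEM 1.2.4 and the mm10 build, and the annotation is not given in the sources used here. Expected counts were rounded (19.8% of values were not whole). The series table held 31673 genes, and 733 genes present only in the sample tables were not used. The edgeR 4.0.16 quasi-likelihood test in R 4.3.3 was fitted to 20 samples of all 9 groups, with the MEF_ciEPC libraries summed per culture series. It used TMM scaling, a filterByExpr minimum count of 10 (16061 genes tested) and Benjamini-Hochberg adjustment, and a call needed an adjusted p below 0.05 and a 2-fold change. The biological coefficient of variation was 0.249. Alternatives were RLE and upper-quartile scaling, DESeq2 1.42.0, limma 3.58.1 on log2(TPM + 1), other filters and sample sets, and leaving out each library. The scripts were tested on simulated data in which all genes had the same dispersion (spread between libraries). For MNF_ciHep against pHep, 10 of 74 genes with a true 2-fold change were called, 44 of 60 with 4-fold and 51 of 57 with 8-fold. Of 14768 unchanged genes 3 were called. Most true changes of 2-fold were thus missed.

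A group at 0 counts was set at 3 counts over its libraries for a bound, and ratios with 1 to 3 counts have 95% exact intervals; both cover counting error only. Gene positions are from GENCODE M21 (GRCm38), where 31426 IDs of the series table matched. The genes named are the 15 largest called rises and the 15 largest falls among genes whose groups do not overlap and whose higher group averages 32 CPM or more, in each list the 3 called members with the smallest adjusted p and the 2 with the highest level, and 40 anchor genes. A few genes that this rule would name are not reported here, although they stay in the fit and in the list counts; others are marked as chosen after their values were seen. The members, gene lists and anchors were chosen with earlier results of these data known.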

Additional observations from a re-analysis of the deposited data

Results flagged for a closer look

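The libraries labelled MNF_ciHep and MEF_ciHep differed from each other beyond the spread within groups, as estimated over all 9 groups. In one edgeR fit, 2866 genes (17.8% of those tested) were higher and 2583 (16.1%) lower in MNF_ciHep than in MEF_ciHep. The fibroblast source, the mouse strain and the culture differ together between these groups and cannot be told apart. Over all genes tested, 31.8% were called in either direction against pHep and 33.9% against MEF_ciHep. The share of all genes called against both was not computed. Of the 38 anchor genes reported, which were chosen with earlier results of these data known, 17 were called against both pHep and MEF_ciHep. Without that share, and with the MNF_ciHep libraries in both comparisons, this count is a description only.

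The hepatocyte genes among them were lower in MNF_ciHep, as given by mean CPM in MNF_ciHep and MEF_ciHep with the edgeR adjusted p. Alb had 0.288 CPM in MNF_ciHep against 1905 CPM in MEF_ciHep (edgeR adjusted p = 1.21e-06). Afp had 3.91 against 4960 CPM (4.56e-06), and Ttr had 6.72 against 451.8 CPM (1.51e-05). Apoa1 had 25.3 against 9224 CPM (0.000119). Hnf4a had 8.0 against 160 CPM (3.5e-05). Cps1, Cyp3a11 and G6pc had no counts in MNF_ciHep, against 55.9, 17.8 and 2.31 CPM in MEF_ciHep (edgeR adjusted p = 3.62e-05, 0.00842 and 0.0227).

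Epithelial genes were lower too. Krt8 had 404.2 CPM in MNF_ciHep against 4271 CPM in MEF_ciHep (edgeR adjusted p = 1.83e-05), and Krt18 had 423.8 against 2710 CPM (0.000568). Cdh1 had 92.9 against 1216 CPM (5.73e-05), and Epcam had 157.2 against 418.8 CPM (0.00655), although Epcam was higher in MNF_ciHep than in pHep.

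The remaining genes were higher in MNF_ciHep than in MEF_ciHep. Col1a1 had 934.7 CPM in MNF_ciHep against 4.04 CPM in MEF_ciHep (edgeR adjusted p = 2.68e-05), and Thy1 had 236.9 against 0.172 CPM (5.99e-07). Cdh2 had 35.5 against 13.1 CPM (0.0108), Mki67 had 211.1 against 45.1 CPM (0.00044) and Cdkn2a had 105 against 49.6 CPM (0.013).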

How the results depend on the processing

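Against pHep, the settings that keep every library of the 2 groups gave 1722 to 3785 higher and 1450 to 3031 lower calls, against 2950 and 2152 as reported. The low end of both is the fit with only the compared groups, where 1703 of the 1722 were among the 2950. Leaving out 1 library gave 2482 to 2658 higher and 1818 to 2066 lower calls against pHep, 1772 to 2301 and 1430 to 1813 against MNF, and 2290 to 2786 and 2000 to 2494 against MEF_ciHep. Upper-quartile scaling moved the median of all genes to 0.16 and the share of higher calls to 60.4%, and limma to 0.25 and 65.1%. Same-numbered libraries did not deviate together (0 of 73 pairs above 0.1, from -0.163 to 0.085), so the numbers pair nothing; a replicate block gave 2842 higher and 2069 lower calls. Of 265 genes reported under the naming rule 261 were tested and 227 called, and 169 calls were kept under all 15 settings.

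Of the called genes, Ctss reversed its sign, with log2 fold changes from -9.79 to 0.75 over the fits without 1 library (0.75 without replicate 2 of pHep). The same fits spanned 0 for genes that were not called: Acta2 (-2.44 to 3.64), Foxa2 (-1.24 to 1.01), Vim (-0.71 to 0.24, with 0.17 without replicate 2 of MNF_ciHep), Nes (-0.75 to 0.91, with 0.25 without replicate 2 of MNF_ciHep), Gstm1 (-0.56 to 1.24, with -0.15 without replicate 1 of MNF_ciHep), Ager (-1.28 to 1.05, with -0.17 without replicate 1 of pHep), Igfbp3 (-0.36 to 1.95), Spp1 (-0.19 to 1.21), Gapdh (-1.29 to 0.21), Krt19 (-1.23 to 0.27), Lpl (-0.31 to 1.23), Atp5a1 (-0.30 to 0.021) and Fth1 (-0.36 to 0.14). In limma Acta2 was at 0.24, Nes at 0.12, Fth1 at 0.070 and Atp5a1 at 0.042, and under the block Cd3e was at 0.19 and Hba-a1 at -0.12. The cause of these changes was not tested. With 2 libraries a group and 1664063 to 3102564 counts in each, a gene not called here may still differ.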
